A study of Homo sapiens with 2 samples.

Results

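The small nucleolar RNA (snoRNA) host long noncoding RNAs were taken as every gene row whose symbol is SNHG followed by a number, together with GAS5, ZFAS1 and EPB41L4A-AS1. The rule found 28 of the 58735 gene rows, with 27 distinct symbols, since SNHG28 stands in 2 rows. Of these, 18 reached 50 reads in 1 or both libraries, the minimum for a ratio, and are described by their ratios. RNA-seq compared dihydroartemisinin-treated cells (label DHA, 1 library) with control cells (label NC, 1 library), which are called untreated here. Dihydroartemisinin is the active form of the antimalarial artemisinins. Both libraries came from SUIT-2, a human pancreatic adenocarcinoma cell line, in a derivative with high metastatic potential. The dose, the exposure time and any vehicle are not stated in the labels. With 1 library a group there was no replicate check and no test, and every difference below is one between these 2 libraries.

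Host RNAs of this class are transcribed by RNA polymerase II, and their introns hold the snoRNAs. The snoRNAs are cut out of the spliced introns and guide the chemical modification of ribosomal RNA in the nucleolus. Box C/D snoRNAs direct ribose methylation, box H/ACA snoRNAs direct pseudouridylation, and small Cajal body RNAs (scaRNAs) act in the same way on spliceosomal RNAs. The spliced exons have little coding potential, and many are short-lived because nonsense-mediated decay, which degrades transcripts with an early stop codon, removes them. GAS5 and several relatives start with a run of pyrimidines, the 5′ terminal oligopyrimidine (TOP) motif that also marks ribosomal protein mRNAs. Several of these RNAs, GAS5 and SNHG1 among them, have been studied for their own part in the growth of tumour cells.

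The libraries held 14521101 (DHA) and 15452609 (untreated) counted reads, with at least 1 read in 22877 and 22903 genes. The retina markers RCVRN, CRX and RLBP1 had 0 reads in both libraries, PDE6A had 5 reads in the DHA and 6 in the untreated library, and OPN1SW had 49 and 61. Retina was checked because the protocol text names that tissue. Levels of the other marker lists are given as CPM, counts per 1000000 reads after scaling by the trimmed mean of M values. Ductal epithelial markers were present, but their summed level was 1309 CPM in the DHA library and 3313 CPM in the untreated one, and all 5 of 5 were at least 2-fold lower after DHA. The differences were unequal: KRT8 was 2.39-fold lower and EPCAM, with 249 reads after DHA and 1396 in untreated cells, 5.30-fold lower. CDH1 had 23 and 933 reads and was 37.6-fold lower, and it passed the read minimum through the untreated library alone. The 5 fibroblast markers, 3 of them at 0 in both libraries, summed to 0.823 CPM in the DHA and 6.76 CPM in the untreated library. The 3 endothelial markers summed to 3.91 CPM in the DHA and 18.3 CPM in the untreated library, with CDH5 at 0. Most of this was PECAM1, with 54 reads in the DHA and 280 in the untreated library, at least 2-fold lower after DHA. VWF had 3 reads and 1 read. The 4 leukocyte and 3 acinar markers summed to 0.206 and 0 CPM in the DHA library and to 0.455 and 0.065 CPM in the untreated library. Whether the fall of the epithelial markers bears on the host RNAs was not tested. In these bulk libraries, fewer cells that express a gene and less RNA per cell cannot be told apart.

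The starts of 9 host RNAs are shown first, because they differ in the pyrimidine start that this family is known for and in an upstream TATA. The windows run from 40 bases before to 30 bases from the RefSeq start on (GRCh38.p14), and each is written 5′ to 3′. Capitals before the start mark a TATA whose first base lies 35 to 20 bases upstream, and capitals at the start mark the unbroken run of pyrimidines (C or T) from the first transcribed base. They are taken from the 13 members past the read minimum whose start could be read. The 5 of these with a C at the start and at least 3 more pyrimidines are given before 4 others. Of the latter, EPB41L4A-AS1 and SNHG10 had the lowest ratios of DHA over untreated.
SNHG4 (chr5:139274061-139274130, plus strand): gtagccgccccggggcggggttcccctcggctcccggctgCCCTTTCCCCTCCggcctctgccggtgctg
SNHG12 (chr1:28581844-28581913, minus strand): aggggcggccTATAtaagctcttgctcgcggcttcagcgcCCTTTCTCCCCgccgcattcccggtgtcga
SNHG5 (chr6:85678704-85678773, minus strand): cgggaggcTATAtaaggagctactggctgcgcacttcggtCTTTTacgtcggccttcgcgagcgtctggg
ZFAS1 (chr20:49278602-49278671, plus strand): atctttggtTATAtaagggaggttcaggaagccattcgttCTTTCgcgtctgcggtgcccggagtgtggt
SNHG7 (chr9:136728155-136728224, minus strand): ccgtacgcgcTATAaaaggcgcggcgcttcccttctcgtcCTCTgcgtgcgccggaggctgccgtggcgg
EPB41L4A-AS1 (chr5:112160486-112160555, plus strand): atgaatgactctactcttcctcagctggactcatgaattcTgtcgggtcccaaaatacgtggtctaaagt
SNHG10 (chr14:95534843-95534912, minus strand): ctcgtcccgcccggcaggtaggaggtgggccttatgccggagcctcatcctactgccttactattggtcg
SNHG8 (chr4:118278722-118278791, plus strand): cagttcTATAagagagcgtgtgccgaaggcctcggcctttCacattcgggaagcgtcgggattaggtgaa
SNHG1 (chr11:62855856-62855925, minus strand): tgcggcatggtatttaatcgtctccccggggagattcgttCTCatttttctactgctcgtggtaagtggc

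RefSeq promoters were matched by symbol for 23 of the 28 rows, 16 of them past the read minimum. For 13 of these 16, the RefSeq start lay within 10 bases of a start in the annotation of the counts. GAS5 was among the other 3, with 163 bases between the starts, so its TOP motif could not be read from this window. The pyrimidine run was 13 bases long in SNHG4, 11 in SNHG12, 5 in SNHG5 and ZFAS1 and 4 in SNHG7. A C start with at least 3 further pyrimidines occurred in 5.45% of all 35116 RefSeq promoters. Under the read minimum, SNHG19, SNHG26 and SNHG18 also had such a start in RefSeq. Among the 13 members, the TATA was found in 4 of the 5 with such a start (SNHG12, SNHG5, ZFAS1 and SNHG7) and, of the 8 without one, in SNHG8. This TATA occurred in 5.67% of all promoters, and both features together in 0.239%. The letters CACGTG, the E-box that reads the same on both strands, were found in the RefSeq promoter of SNHG7 and in no other matched row, against 7.26% of all promoters. These are letter matches in a fixed window and say nothing of a bound factor.

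GAS5, SNHG5 and SNHG6 were the most abundant host RNAs per base in both libraries. Levels per length are given as RPKM, the CPM divided by the exon length in kilobases. GAS5, which accumulates when cells stop growing, was at 41.6 RPKM in the DHA library and 50.02 RPKM in the untreated library. SNHG5, the host of SNORD50B, was at 38.2 and SNHG6, the host of SNORD87, at 38.7 RPKM after DHA, against 46.8 and 58.4 RPKM in untreated cells. The lowest member past the read minimum was SNHG20, at 0.406 RPKM in the DHA and 0.662 RPKM in the untreated library. SNHG14 followed, at 0.573 and 0.978 RPKM, and its exons together span 43324 bases. The median over the 18 members was 6.72 RPKM in the DHA library and 8.14 RPKM in the untreated library. In the plot of levels, 16 of the 18 red points lie left of the grey ones.

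**Figure D1:**
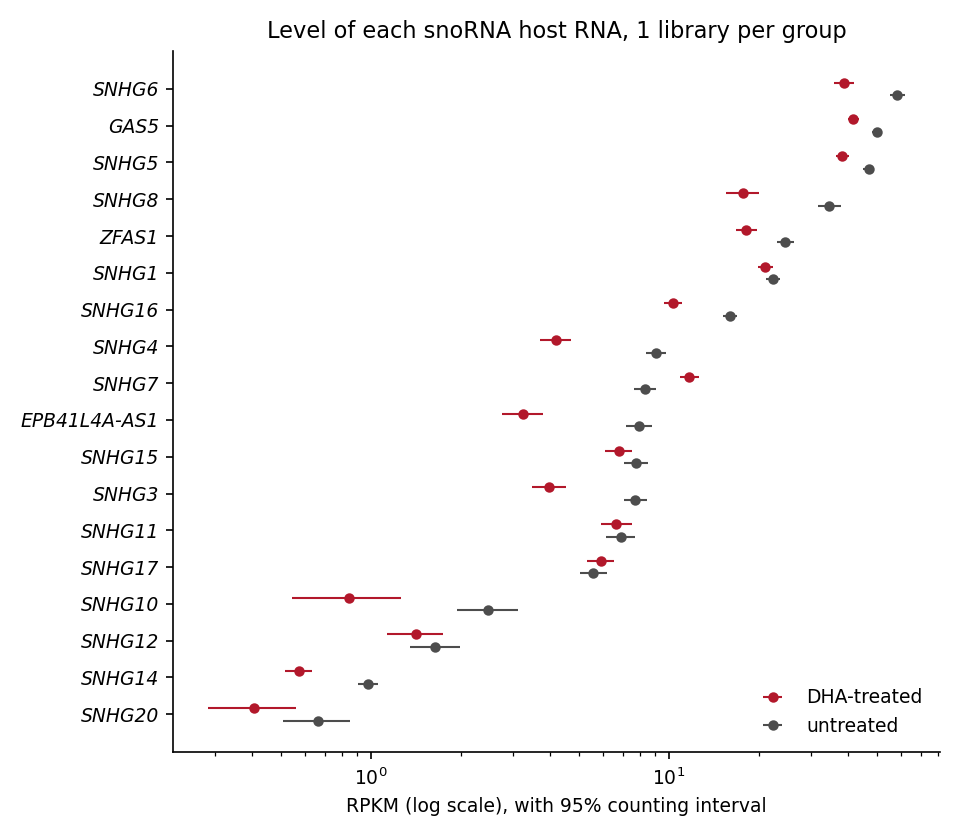
Level of the 18 snoRNA host RNAs past the read minimum, in RPKM on a log axis, with the DHA-treated library in red and the untreated library in grey. Points are single libraries, bars are 95% counting intervals, and rows are ordered by the untreated level; the DHA point lies to the left for 16 members and to the right for SNHG17 and SNHG7.

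All 28 rows together had 10223 reads in the DHA library (95% counting interval 10026 to 10423) and 14051 reads in the untreated library (13820 to 14285). This was 701 CPM (688 to 715) after DHA and 913 CPM (898 to 928) in untreated cells, or 0.0704% and 0.0909% of counted reads. The log2 ratio of the sums, DHA over untreated, was -0.38 (-0.42 to -0.34). GAS5, SNHG5 and SNHG1 had the most reads in the DHA library and held 48.1% of the members' reads there. In the untreated library GAS5, SNHG5 and SNHG16 held 43.7%. These intervals express the error of counting alone: PCR copies of a molecule count as separate reads, and the variation between cultures was not measured.

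Most host RNAs had lower values in the DHA library, and the shift was moderate. Of the 18 members past the read minimum, 16 (88.9%) had a log2 ratio below 0, against 47.8% of all 12064 genes past the minimum and 58.2% of 404 other long noncoding RNAs. The median log2 ratio of the members was -0.51, with quartiles of -0.91 and -0.20, and -0.29 without the 5 members for which overlapping genes take up over 25% of the exon length. The median was 0.04 over all genes, with quartiles of -0.43 and 0.46, and -0.19 over the other long noncoding RNAs, with quartiles of -0.88 and 0.38. The counting interval lay below 0 for 12 members (66.7%), above 0 for SNHG7 and held 0 for 5. It lay below 0 for 35.5% and above 0 for 39.8% of all genes, and for 39.9% and 23.3% of the other long noncoding RNAs. An interval narrows with the number of reads, so these shares depend on abundance.

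**Figure D2:**
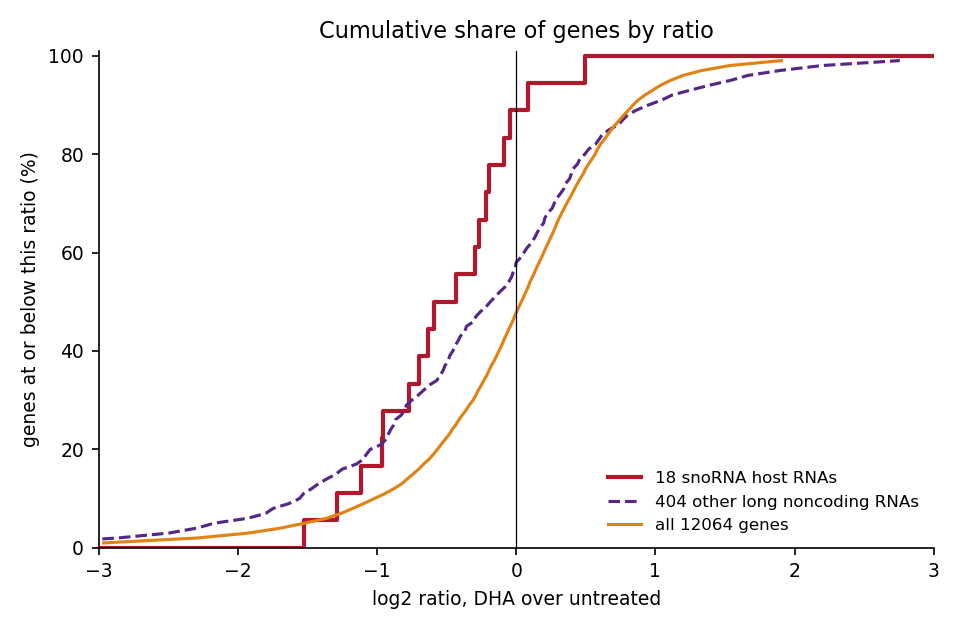
Share of genes, in percent, at or below each log2 ratio of DHA over untreated, for the 18 snoRNA host RNAs (red steps), 404 other long noncoding RNAs (dashed purple) and all 12064 genes (orange). The red steps reach 88.9% at a ratio of 0, where the other noncoding RNAs stand at 58.2% and all genes at 47.8%.

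A gene was called when its ratio was at least 2-fold either way and its counting interval excluded no change. By this rule 3 members, SNHG10, EPB41L4A-AS1 and SNHG4, were called lower in the DHA library, which is 16.7% of the 18, and 0 were called higher. Over all genes 10.3% were called lower and 6.72% higher, and over the other long noncoding RNAs 20.5% lower and 9.9% higher. The share of members called lower thus lay between these backgrounds, while the share below 0 lay above both. SNHG10 and SNHG20 passed the read minimum through the untreated library alone, with 24 and 36 reads after DHA against 74 and 62 in untreated cells.

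**Figure D3:**
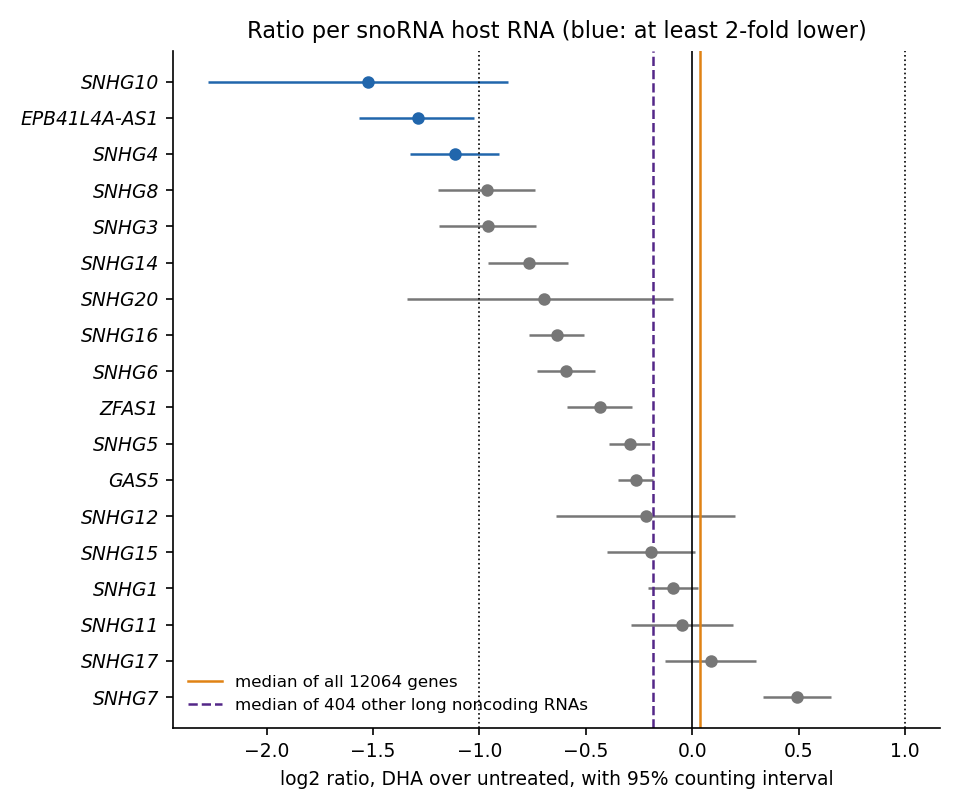
Log2 ratio of DHA over untreated for the 18 snoRNA host RNAs, with 95% counting intervals and blue points for the 3 called at least 2-fold lower. Dotted lines mark 2-fold, the orange line the median of all 12064 genes (0.04) and the dashed purple line the median of 404 other long noncoding RNAs (-0.19); 16 of 18 points lie left of 0.

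Among the hosts of box H/ACA snoRNAs, 8 members passed the read minimum, with a median log2 ratio of -0.58. EPB41L4A-AS1, the host of SNORA13, had 158 reads (3.24 RPKM) in the DHA library and 409 reads (7.95 RPKM) in the untreated library. It was 2.45-fold lower after DHA (95% counting interval 2.04 to 2.96), and the gene (ENSG00000224032) lies at chr5:112160526-112164276 on the plus strand (GRCh38). SNHG4, the host of SNORA74A, had 272 reads (4.18 RPKM) in DHA-treated and 622 reads (9.04 RPKM) in untreated cells, 2.16-fold lower (1.87 to 2.51). It (ENSG00000281398) lies on the same chromosome and strand, at chr5:139274102-139284899. The intervals of both exclude no change. SNHG8 and SNHG3, the hosts of SNORA24 and of the SNORA73 pair, were just short of the 2-fold threshold and were called lower with upper-quartile scaling. SNHG8 had 238 reads in the DHA library, against 491 in the untreated library, with a log2 ratio of -0.96 (-1.20 to -0.74). SNHG3 had 236 reads in DHA-treated cells, against 485 in untreated cells, also with a log2 ratio of -0.96 (-1.19 to -0.73).

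The other 4 H/ACA hosts lay near or above 0. SNHG15, the host of SNORA9, had 361 reads in the DHA library and 436 in the untreated library, with a log2 ratio of -0.19 (-0.40 to 0.01). SNHG11, the host of SNORA60, had 273 and 298 reads, and SNHG17, the host of the SNORA71 copies, had 361 and 359, in the DHA and the untreated library. Their log2 ratios were -0.05 (-0.29 to 0.19) and 0.09 (-0.13 to 0.30), and the intervals of both hold 0. SNHG7, the host of SNORA17A and SNORA17B, was the one member with an interval above 0, and its gene (ENSG00000233016) lies at chr9:136721366-136728184 on the minus strand. It had 742 reads (11.7 RPKM) after DHA and 557 reads (8.33 RPKM) in untreated cells, with a log2 ratio of 0.49 (0.33 to 0.65). SNHG7 also had the highest GC content of the members past the read minimum, 65.9%. Across the 18 members the log2 ratio correlated with GC content at a Pearson r of 0.53 and a Spearman coefficient of 0.40, while over 12062 genes with a GC value r was -0.03. All points share the same 2 libraries, so these are descriptions without a test.

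The 6 members past the read minimum whose named snoRNA rows are all of box C/D lay below 0. Their median log2 ratio was -0.51, and none reached 2-fold. GAS5 has no snoRNA row in the annotation of the counts and was not placed by kind, which does not mean that it hosts no box C/D snoRNA. SNHG16, the host of the SNORD1 cluster, had 808 reads in the DHA library and 1327 in the untreated library, a log2 ratio of -0.64 (-0.76 to -0.51). SNHG6 had 704 reads in DHA-treated and 1121 in untreated cells, a log2 ratio of -0.59 (-0.73 to -0.46). ZFAS1, the antisense transcript at the 5′ end of ZNFX1 and host of the SNORD12 cluster, had 595 reads after DHA and 849 in untreated cells, a log2 ratio of -0.43 (-0.59 to -0.28). For these 3 the intervals lie wholly below 0, but they share 33.4%, 36.4% and 46.9% of their exon length with other annotated genes. Part of their reads may thus be shared or left uncounted. SNHG5 had 1562 reads in the DHA library, against 2023 in the untreated library, a log2 ratio of -0.29 (-0.39 to -0.20). SNHG1, the host of SNORD22 and SNORD25 to SNORD28 among others, had 1152 reads in DHA-treated and 1295 in untreated cells, and its log2 ratio of -0.09 had an interval that holds 0 (-0.21 to 0.03). SNHG14, the long imprinted transcript downstream of SNRPN that carries the SNORD115 and SNORD116 arrays, had 362 reads after DHA and 652 in untreated cells, a log2 ratio of -0.77 (-0.96 to -0.58).

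Both hosts of scaRNAs lay below 0. SNHG10, the host of SCARNA13, was the lowest member, with 24 reads (0.847 RPKM) in the DHA library and 74 reads (2.47 RPKM) in the untreated library. It was 2.88-fold lower (1.82 to 4.84), with a wide interval from few reads. The gene (ENSG00000247092) lies at chr14:95532297-95534872 on the minus strand. SNHG20, the host of SCARNA16, had 36 reads after DHA and 62 in untreated cells, with a log2 ratio of -0.70 (-1.34 to -0.09). SNHG12, which hosts snoRNAs of both boxes, had 88 reads in DHA-treated and 108 in untreated cells, a log2 ratio of -0.22 (-0.64 to 0.20). GAS5, for which the annotation of the counts lists no snoRNA row, had 2202 reads in the DHA library and 2796 in the untreated library, a log2 ratio of -0.27 (-0.35 to -0.18). GAS5 has 29 annotated transcripts, 19 of them with a retained intron, and SNHG1 has 25, 13 of them with a retained intron. Counts are over the union of exons of all transcripts, so spliced and intron-retaining forms cannot be told apart.

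Members with many and with few reads both lay mostly below 0. The 9 members with the most reads had a median log2 ratio of -0.43, with 1 called lower (SNHG4), and the 9 with the fewest had -0.70, with 2 called lower. Across the 18 members, the Pearson r of the log2 ratio with the mean log2 CPM was 0.39 (Spearman coefficient 0.32) and with exon length 0.08 (Spearman coefficient 0.12). Among the 13 members whose start could be read, the 5 with the pyrimidine start had a median of -0.29, with a range of -1.11 (SNHG4) to 0.49 (SNHG7) and 1 called lower. The 8 without it had a median of -0.67, with a range of -1.53 (SNHG10) to 0.09 (SNHG17) and 2 called lower. The ranges overlap widely, and SNHG4, with the longest pyrimidine run of the 13, was among the lowest.

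The 10 rows that did not pass the minimum add few reads. SNHG22, SNHG18, SNHG27 and the noncoding row of SNHG28 had 0 reads in both libraries, which allows up to 0.206 CPM in the DHA and 0.195 CPM in the untreated library. SNHG26 had 19 reads after DHA and 36 in untreated cells, and SNHG19 had 10 and 28. SNHG9 had 3 reads in the DHA library and 9 in the untreated library, and SNHG21 had 3 and 5. The second SNHG28 row, annotated as protein-coding, had 13 reads after DHA and 8 in untreated cells, and SNHG25 had 1 read in each library. Of these 6 rows with reads, 4 had fewer reads in the DHA library, but the counts are too low for a ratio.

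The mature snoRNAs hardly appear in these counts. Of 992 snoRNA and scaRNA rows in the table, 176 had a read and none reached 50, with 408 reads in sum in the DHA and 541 in the untreated library. Within the host RNAs the annotation places 136 such rows, of which 21 had a read, 60 reads in sum after DHA and 117 in untreated cells. The log2 ratio of these sums was -0.88 (-1.36 to -0.42), and 13 rows were lower and 8 higher in the DHA library. SNORA74A, with 3 reads in each library, counts as higher through scaling alone. Most of the difference between the sums came from SNORA73B, SNORA71A and SNORA60. These had 6, 5 and 1 reads after DHA and 26, 22 and 11 in untreated cells, so the summed ratio does not stand for each row. None of the 44 rows that share bases with host exons had a read, whereas 21 of the 92 rows lying wholly in introns did. Outside SNHG14, 16 of 21 intron rows had a read. SNHG14 holds 84 rows, among them 30 of SNORD116 and 48 of SNORD115, and 5 of the 84 had a read. How reads that fall on 2 features were counted is not stated, so the 0 counts of the exon-sharing rows cannot be read as absence of the snoRNA. Reads within an intron cannot be assigned to mature snoRNA or to unspliced host RNA.

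Some snoRNAs of hosts that differed between the libraries are shown, namely ones in which the defining boxes were found by their letters. No box was found in this way in SNORA74A of SNHG4, a host called lower, nor in SNORA71A and SNORA60. In SNORD99 of SNHG12 only the D box was found, and these snoRNAs are not shown. The sequences shown are those of GENCODE 29 transcripts on GRCh38, 5′ to 3′. Capitals mark the ACA box near the 3′ end of the H/ACA snoRNAs and of SCARNA13, and the C box (TGATGA) and D box (CTGA) of the C/D snoRNAs.
SNORA13 (chr5:112161485-112161617, plus strand): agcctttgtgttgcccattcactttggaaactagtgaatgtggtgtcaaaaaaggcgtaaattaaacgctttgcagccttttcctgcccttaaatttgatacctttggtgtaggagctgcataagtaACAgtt
SNORA73B (chr1:28508559-28508762, plus strand): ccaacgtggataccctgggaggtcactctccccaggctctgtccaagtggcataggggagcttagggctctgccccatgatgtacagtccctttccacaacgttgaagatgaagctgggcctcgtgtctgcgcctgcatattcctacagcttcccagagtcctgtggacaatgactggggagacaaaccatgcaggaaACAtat
SCARNA13 (chr14:95533355-95533629, minus strand): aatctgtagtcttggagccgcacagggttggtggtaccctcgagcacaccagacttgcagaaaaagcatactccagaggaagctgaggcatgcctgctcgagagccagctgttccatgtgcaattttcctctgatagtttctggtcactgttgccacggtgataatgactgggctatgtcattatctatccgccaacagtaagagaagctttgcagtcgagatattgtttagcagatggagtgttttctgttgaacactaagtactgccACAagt
SNORD12B (chr20:49280319-49280409, plus strand): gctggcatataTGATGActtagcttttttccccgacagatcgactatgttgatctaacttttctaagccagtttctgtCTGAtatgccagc
SNORD12C (chr20:49278940-49279028, plus strand): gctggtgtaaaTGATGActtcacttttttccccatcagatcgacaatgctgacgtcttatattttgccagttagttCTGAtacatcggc

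SNORA73B, an H/ACA snoRNA needed for ribosomal RNA processing, lies in SNHG3 and had the most reads, 6 in the DHA library and 26 in the untreated library. Its host had a log2 ratio of -0.96. SNORA71A, in SNHG17, had 5 reads after DHA and 22 in untreated cells, while its neighbours in the same host, SNORA71B and SNORA71C, had 10 and 8 reads after DHA and 8 and 9 in untreated cells. SNORA71D, also in SNHG17, went the other way from SNORA71A, with 5 reads after DHA and 0 in untreated cells. These H/ACA copies are close relatives, so reads could be split between them in a way that is not recorded. SNORA60, in SNHG11, had 1 read in the DHA library and 11 in the untreated library, and SNORD12B, in ZFAS1, had 5 and 7. SNORA13 had 0 reads in DHA-treated and 6 in untreated cells, and SCARNA13 had 6 and 2, opposite to its host SNHG10. SNORD12C had 3 reads after DHA and 1 in untreated cells. Counts this low give wide intervals, and no snoRNA was called.

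Several host RNAs overlap or start next to a protein-coding gene on the other strand. Of 9 such pairs past the read minimum, 7 had ratios of opposite sign, and the neighbour lay above 0 in 6 pairs and below 0 in 3, against 47.8% of all genes below 0. The hosts of 2 of the 7 pairs, SNHG1 and SNHG12, have intervals that hold 0. EPB41L4A, which encodes a membrane skeleton protein, had 99 reads in the DHA library and 47 in the untreated library, a log2 ratio of 1.15 (0.64 to 1.69), and was called higher. It shares 49.6% of the exon length of EPB41L4A-AS1. FAM69B had 16 reads after DHA and 86 in untreated cells, a log2 ratio of -2.31 (-3.22 to -1.57), and was called lower, and it shares 25.2% of the exon length of SNHG7. In both pairs the host RNA and its neighbour thus lay on opposite sides of 0. EPB41L4A and FAM69B each passed the read minimum only through the library in which they were higher, which favours a large ratio in that direction. Whether strand was used in counting is not stated, so reads of the shared stretches cannot be assigned to one partner.

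SLC3A2, the heavy chain of several amino acid transporters, starts 188 bases from SNHG1 and had 9167 reads in the DHA library and 5145 in the untreated library, a log2 ratio of 0.91 (0.86 to 0.96). Its partner SNHG1 had a log2 ratio of -0.09, so the RNAs leaving this shared start region differed in ratio. ZNFX1, an RNA helicase gene that starts 248 bases from ZFAS1, had 3160 reads after DHA and 2277 in untreated cells, a log2 ratio of 0.55 (0.47 to 0.63), against -0.43 for ZFAS1. ZBTB37 starts 800 bases from GAS5 and had 372 reads in DHA-treated and 418 in untreated cells, a log2 ratio of -0.09 (-0.29 to 0.12). UBE3A, the ubiquitin ligase gene silenced in neurons on the paternal allele by the SNHG14 transcript, had 1787 reads after DHA and 1433 in untreated cells, a log2 ratio of 0.40 (0.30 to 0.50). Only 0.457% of the exon length of SNHG14 is shared with it. GLRX5, an iron-sulphur cluster gene that shares 20.1% of the exon length of SNHG10, lay on the same side of 0 as its host, with 669 reads after DHA and 1083 in untreated cells, a log2 ratio of -0.62 (-0.76 to -0.48). The remaining 2, SIL1 beside SNHG4 and TRNAU1AP beside SNHG12, had log2 ratios of 0.37 (0.18 to 0.57) and 0.28 (-0.03 to 0.60).

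**Figure D4:**
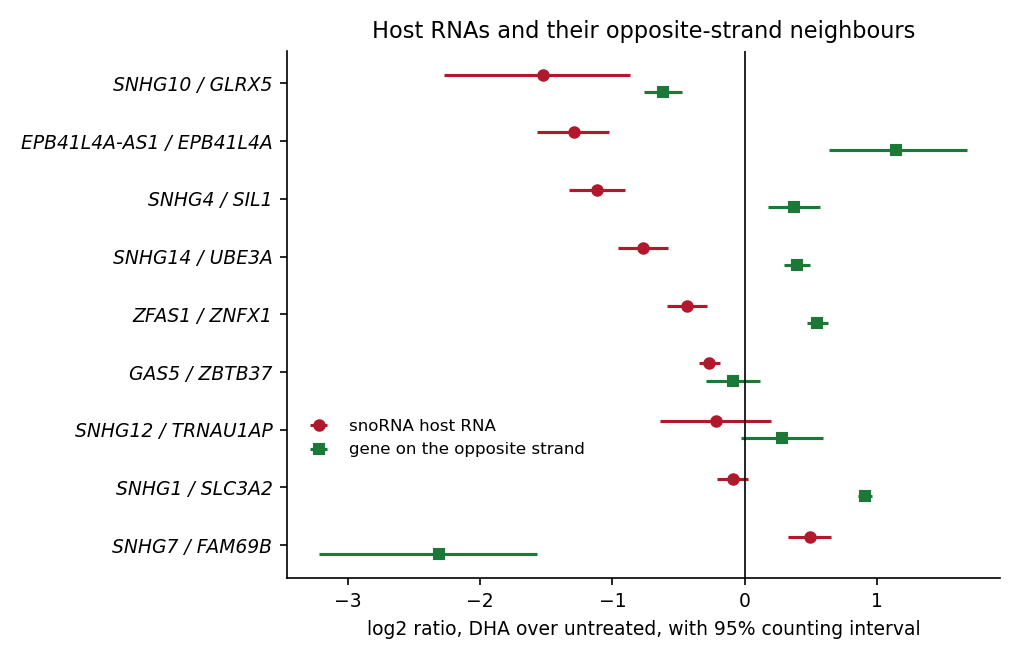
Log2 ratio of DHA over untreated for 9 snoRNA host RNAs (red circles) and the protein-coding gene on the opposite strand that overlaps each or starts within 1000 bases of it (green squares), with 95% counting intervals. In 7 of the 9 rows the circle and the square lie on opposite sides of 0.

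On the same strand, RCC1, whose annotated start lies 37 bases from that of SNHG3, had 650 reads in the DHA library and 885 in the untreated library, a log2 ratio of -0.37 (-0.51 to -0.22). SEC14L1, which overlaps SNHG20, had 2154 reads after DHA and 1661 in untreated cells, a log2 ratio of 0.45 (0.36 to 0.55). Next to members under the read minimum, RPS2, 99 bases from SNHG9, had a log2 ratio of -0.27 (-0.31 to -0.22), and TRAF7, beside SNHG19, one of -0.20 (-0.33 to -0.08). ACAA2, a mitochondrial thiolase gene that starts 63 bases from SNHG22, had 458 reads after DHA and 1109 in untreated cells, a log2 ratio of -1.20 (-1.36 to -1.04), and was called lower. MYO5B, which overlaps SNHG22, had a log2 ratio of -0.42 (-0.76 to -0.08).

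Long noncoding RNAs that hold a snoRNA but carry another symbol were the closest set for comparison. Of 7 past the read minimum, 6 lay below 0, with a median log2 ratio of -0.37, 1 called lower and 0 called higher. LRRC75A-AS1, named SNHG29 in newer annotation, had 2729 reads in the DHA library and 3507 in the untreated library, a log2 ratio of -0.28 (-0.36 to -0.21). LINC02001, named SNHG30 in newer annotation, had 61 reads after DHA and 118 in untreated cells, a log2 ratio of -0.87 (-1.34 to -0.42). Both were of the same sign as most members. DANCR, the host of SNORA26, had 790 reads in DHA-treated and 1081 in untreated cells, a log2 ratio of -0.37 (-0.51 to -0.24). MIR31HG, which is known as the host of a microRNA and contains a snoRNA row named only by its sequence family, was called lower, with 53 and 117 reads in the DHA and the untreated library, a log2 ratio of -1.06 (-1.56 to -0.58). That call was lost with a minimum of 200 reads and after removal of a length and GC trend. TMEM161B-AS1 had a log2 ratio of -0.52 (-1.05 to -0.01), GPRC5D-AS1 one of -0.16 (-0.71 to 0.38) and UBA6-AS1 one of 0.25 (-0.16 to 0.66).

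Protein-coding genes that host snoRNAs, most of them ribosomal protein and translation factor genes, lay mostly on the same side, with a smaller shift. Of the 50 listed, 49 passed the read minimum, 34 lay below and 15 above 0, the median log2 ratio was -0.27 and 0 were called either way. The members with the largest log2 ratios in size were RPL23 at -0.79 (-0.83 to -0.75), RPSA at -0.74 (-0.77 to -0.71), RPS3 at -0.68 (-0.71 to -0.66) and RPL21 at -0.67 (-0.73 to -0.61). All of these are ribosomal protein genes. Listed hosts outside that family lay on both sides of 0, with EIF4G2 at 0.59 and EEF2 at 0.51, but SF3B3 and EEF1B2 at -0.64. The median of the list thus does not stand for each kind of host. Ribosomal protein genes have many processed pseudogenes, and how reads that map to several places were counted is not given. Of 11 genes for box C/D snoRNP proteins and their assembly factors, 0 were called and 6 lay below 0, with a median of -0.12. FBL, the methyltransferase fibrillarin, had 1558 reads in the DHA library and 2752 in the untreated library, a log2 ratio of -0.74 (-0.83 to -0.65). Its partners NOP56 and SNU13 had log2 ratios of -0.64 (-0.75 to -0.53) and -0.41 (-0.52 to -0.31), and the assembly factor ZNHIT6 one of 0.59 (0.42 to 0.76). Of 6 genes for the H/ACA particle, 0 were called and 4 lay below 0, with a median of -0.04, or 0.10 after removal of a length and GC trend. NHP2 had a log2 ratio of 0.31 (0.13 to 0.49), and the intervals of SHQ1 (0.16), NOP10 (-0.13) and NAF1 (-0.09) held 0.

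Nonsense-mediated decay is a known route by which many spliced host RNAs are removed. Its factors mostly had higher values in the DHA library without reaching 2-fold. Of 19 decay and exon junction factors, 15 lay above and 4 below 0, against 47.8% of all genes below 0. Their median log2 ratio was 0.51 and 0 were called. Whether these values bear on the host RNAs was not tested. DHX34, a helicase of the pathway, had a log2 ratio of 0.86 (0.71 to 1.02), UPF2, the adaptor of the helicase UPF1, one of 0.82 (0.67 to 0.98), the exon junction component CASC3 one of 0.79 (0.70 to 0.89) and SMG5, which acts in target degradation, one of 0.78 (0.71 to 0.84). Of 8 protein-coding transcripts known as decay targets, 8 lay above 0 and 6 were called higher, with a median of 1.65, so these had the other sign from most host RNAs. ATF3 had 270 reads after DHA and 44 in untreated cells, a log2 ratio of 2.68 (2.23 to 3.19), DDIT3 had 1736 and 336 reads, a log2 ratio of 2.45 (2.28 to 2.62), and UPP1 had 5739 and 1323 reads, a log2 ratio of 2.20 (2.11 to 2.28). GADD45A had 1882 reads in the DHA library and 581 in the untreated library, a log2 ratio of 1.77 (1.64 to 1.91). ATF4, at 1.48 (1.41 to 1.56), and GADD45B, at 1.53 (1.24 to 1.84), were also called higher. ATF3 passed the read minimum through the DHA library alone. TBL2, at 0.61 (0.49 to 0.73), and NAT9, at 0.36 (0.13 to 0.58), were not called. At least ATF4, ATF3, DDIT3 and GADD45A are also induced in stress responses, so the list is not a measure of decay alone. Only steady-state counts were available, and RNA decay was not measured.

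Of 16 regulators of TOP transcripts and of growth, 15 passed the read minimum and 12 lay above 0, with a median of 0.19 and 0 called. The growth inhibitor TSC1 had a log2 ratio of 0.88 (0.71 to 1.04), the bHLH factor MAX one of 0.81 (0.64 to 0.98), EIF4EBP1, which restrains the cap-binding factor, one of 0.71 (0.57 to 0.84) and the RNA-binding protein gene LARP4 one of 0.58 (0.49 to 0.67). GAS5 is known to bind the glucocorticoid receptor, so the receptor and its common targets were also read. Of the 8 listed, 6 passed the read minimum, 1 was called higher and 1 lower, with a median of 0.31. TSC22D3 had 223 reads in the DHA library and 1473 in the untreated library, a log2 ratio of -2.64 (-2.85 to -2.44), and DUSP1 had 451 and 113 reads, a log2 ratio of 2.07 (1.78 to 2.39). SGK1 had a log2 ratio of -0.98 (-1.19 to -0.77) and PER1 one of 0.48 (0.15 to 0.82), so the targets did not share a direction.

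**Figure D5:**
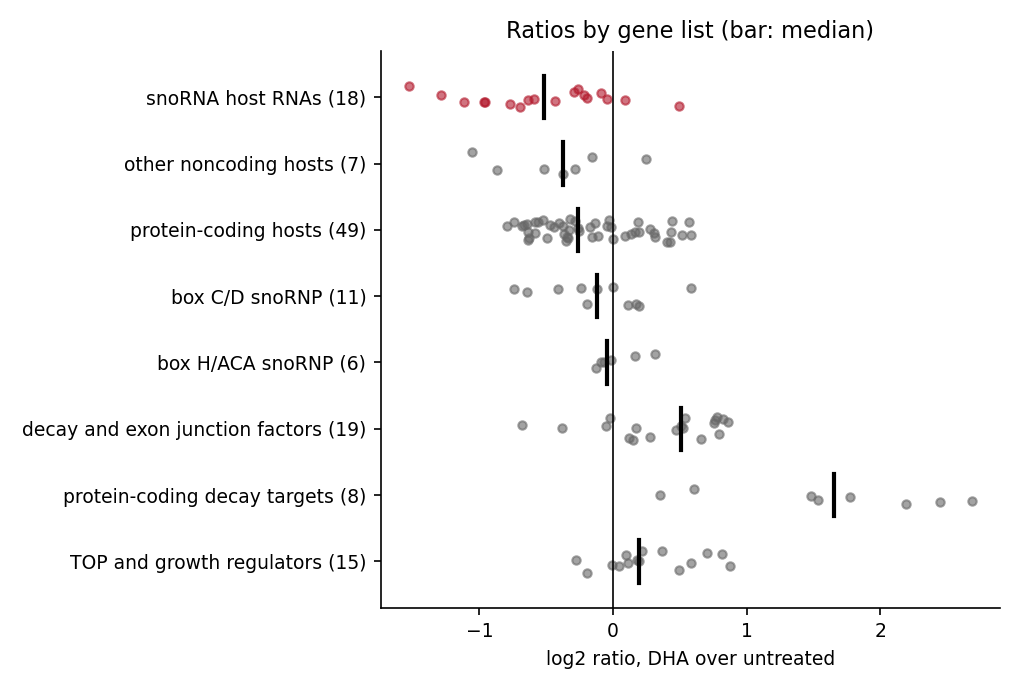
Log2 ratio of DHA over untreated for each gene past the read minimum in 8 groups, with the number of genes in parentheses and a black bar at the median. The 18 snoRNA host RNAs (red) have a median of -0.51, the protein-coding hosts of -0.27 and the protein-coding decay targets of 1.65; points are spread vertically at random for legibility.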

How the data were processed

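RNA-seq of 1 DHA-treated and 1 untreated library of SUIT-2 cells was used, grouped by the treatment label. The deposited table holds raw read counts per gene and gene lengths in bases, per the file headers. All 58735 rows had identifiers, coordinates and exon-union lengths of GENCODE 29 (GRCh38). The submitters' processing notes name the mouse build mm8 and the labels' protocols name retina, which go against the human identifiers. For the aligner, the counter, its use of strand and any selection of RNA, nothing is given in the sources used here.

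Counts were scaled by TMM (edgeR 4.0.16, R 4.3.3), and 0.5 reads were added before log2 ratios of DHA over untreated were taken. Intervals are exact 95% Clopper-Pearson intervals of the DHA share of a gene's reads. For a call, 1 or both libraries had to reach 50 reads, the ratio had to be 2-fold or more and the interval had to leave out 1. A count of 0 allows up to 3 reads. RPKM were computed here from the deposited lengths. Named were all members past the minimum, up to 4 genes per list with the largest log2 ratio in size, all other hosts and neighbours past the minimum and the 5 snoRNAs with the most reads. SNORA13, SCARNA13, SNORD12C, SNORD99, EIF4G2, EEF2, SF3B3, EEF1B2, TBL2, NAT9 and the members under the minimum were named after their values were seen. The same holds for ATF4, GADD45B, SNORA71D and SNORA74A. Members and lists were chosen with earlier results of these data known. Alternatives covered DESeq2 1.42.0 size factors, other scalings, minimums, pseudocounts, thresholds and overlaps. Some retina markers of the list are not reported here.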

Additional observations from a re-analysis of the deposited data

How the results depend on the processing

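No single host RNA changed its call to the opposite direction under any of the alternatives run. Of 190 values of single members, 188 stayed within the counting interval, and the exceptions, SNHG8 at -0.72 and SNHG6 at -0.39, arose after removal of a length and GC trend, which also turned the uncalled SNHG11 to 0.04. The log2 ratio ranged from -1.59 to -1.39 for SNHG10, from -1.36 to -1.24 for EPB41L4A-AS1 and from -1.18 to -1.10 for SNHG4. Members called lower were 3 as reported, 5 with upper-quartile scaling (SNHG8 and SNHG3 added), 4 with DESeq2 size factors or a minimum of 1 or 10 reads, 2 with a minimum of 200 reads (SNHG10 left out), 9 at 1.5-fold (where 19.2% of all genes were lower) and 0 at 4-fold, and 0 were higher under each of these. The share of all genes called lower also moved, from 10.3% as reported to 11.2% with upper-quartile scaling and 10.8% with DESeq2 size factors. It was 9.17% with a minimum of 1 read, 13.6% with 10 reads, 7.36% with 200 reads and 2.82% at 4-fold. The members' median was -0.55 with DESeq2 size factors, -0.58 with upper-quartile scaling, -0.35 with the trend removed and -0.29, with 2 called lower, without the 5 members that share over 25% of their exon length. The summed level was 686 CPM (DHA) and 934 CPM (untreated) with upper-quartile scaling, and 758 CPM and 987 CPM in the DHA and the untreated library with scaling without mitochondrial genes. Of 216 values of other lists, 12 moved. The median of protein-coding hosts was -0.33 with upper-quartile scaling and -0.18 with the trend removed, and that of TOP regulators 0.13 with upper-quartile scaling. With a minimum of 1 or 10 reads, 1 TOP regulator was called lower and 2 glucocorticoid-list genes higher. With DESeq2 size factors, upper-quartile scaling or the trend removed, 2 glucocorticoid-list genes were called lower. Other noncoding hosts called lower were 0 with a minimum of 200 reads or the trend removed, and the H/ACA particle list had a median of 0.10 with the trend removed. Over the alternatives run, the median over all genes lay between -0.03 (upper quartile) and 0.07 (minimum of 200 reads). The cause of these moves was not tested. Scaling without mitochondrial genes, the trend removal and the 25% limit were chosen after seeing the data. No paired analysis was possible because each group has 1 library. Depth limits SNHG10, SNHG12, SNHG20 and all snoRNAs, and nothing here measures the spread between cultures.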
